A study of Mus musculus with 15 samples.

Results

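The expression of 10 genes of the podosome and the sealing zone was followed through mouse bone marrow-derived macrophages (BMDMs) stimulated with RANKL or LPS. The genes were chosen by name: Src, Ptk2b, Cbl, Tln1, Fermt3, Pxn, Cttn, Gsn, Dock5 and Sh3pxd2a. All 10 were found among the 20089 genes listed, and all 10 passed the filter on low values (0.1 FPKM on average over the samples, where FPKM are fragments scaled to exon length and library size), which left 11743 genes to test. The cells came from wild-type C57BL/6 mice and had been cultured with M-CSF for 3 days. The general culture methods of the study give another length of time in M-CSF. The 15 samples fell into 5 groups of 3. The Control group received M-CSF alone. The other groups received M-CSF together with RANKL for 4 h, RANKL for 3 days (72 h), LPS for 4 h or LPS for 3 days (72 h). RANKL is the cytokine that drives macrophage precursors into osteoclasts, and LPS is a bacterial cell wall component that activates macrophages. No group was labelled as kept in M-CSF alone for the additional 72 h, so at 72 h the stimulus and the time in culture cannot be told apart. The labels do not say whether the 3 samples of a group came from separate mice or cultures, and the p-values measure the spread between these samples only.

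Podosomes are small adhesion structures of macrophages and osteoclasts, built from a core of branched actin and a surrounding ring of integrins and adhesion proteins. In an osteoclast on bone they gather into a belt and then into the sealing zone, the tight actin ring that encloses the resorbed surface. Engaged integrin αvβ3 brings in the kinases Src and Pyk2 and the adaptor Cbl, which turn podosomes over. Talin, kindlin-3 and paxillin link integrins to actin in the ring. Cortactin and gelsolin act in the actin core, DOCK5 activates Rac, and the scaffold TKS5 organises the core and matrix degradation.

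The promoters of Src and Gsn are shown first, because these were the members called changed against Control after 72 h of both stimuli. A RefSeq promoter (GRCm38.p6) was matched for 5 of the 10 members (Src, Cbl, Gsn, Tln1 and Fermt3), with 7 start sites. The 250 bases before the start are given 5′ to 3′ on the strand of the gene. Capitals mark matches to the PU.1 core GAGGAA or its reverse complement TTCCTC, and to the NFAT core TGGAAA. Src lies on the plus strand at chr2:157424043-157424292, Gsn start site 1 at chr2:35256109-35256358 and Gsn start site 3 at chr2:35282130-35282379. The windows of Src and Gsn start site 3 lie inside the annotated gene spans, which begin at 157418444 and 35256380. They precede internal starts, and the region before the outermost Src start was not searched.
Src: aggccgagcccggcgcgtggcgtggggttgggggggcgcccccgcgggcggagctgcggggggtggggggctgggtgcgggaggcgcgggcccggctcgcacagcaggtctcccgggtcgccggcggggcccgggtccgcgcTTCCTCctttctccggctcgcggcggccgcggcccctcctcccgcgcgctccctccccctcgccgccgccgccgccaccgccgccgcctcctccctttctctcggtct
Gsn, start site 1: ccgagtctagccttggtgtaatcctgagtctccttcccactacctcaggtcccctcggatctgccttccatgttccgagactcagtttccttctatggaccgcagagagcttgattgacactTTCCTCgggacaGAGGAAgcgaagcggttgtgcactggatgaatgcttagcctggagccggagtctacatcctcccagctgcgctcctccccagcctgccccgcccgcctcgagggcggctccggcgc
Gsn, start site 3: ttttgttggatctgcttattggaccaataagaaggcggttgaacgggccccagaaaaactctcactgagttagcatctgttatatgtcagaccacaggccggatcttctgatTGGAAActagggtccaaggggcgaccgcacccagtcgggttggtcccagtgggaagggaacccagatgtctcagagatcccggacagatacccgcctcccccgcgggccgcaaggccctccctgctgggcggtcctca
The Src promoter was made up of 82.8% G and C and held 40 CG pairs, against medians of 52.4% and 6 over all 32851 promoters of the same length. The 3 Gsn promoters held 60.8%, 56% and 57.6% G and C. A PU.1 core was found in Src, Cbl, Tln1 and Gsn start site 1, and in 23.3% of all promoters. The NFAT core was found in Gsn start site 3 and in 18.6% of all promoters. The AP-1 motif TGANTCA (6.75% of all promoters), the MITF motif TCATGTG (3.25%), the NF-kB motif (5%) and the CArG box (1.47%) had no match in the 7 windows. Both strands were searched. A match describes the letters in the window and nothing more.

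Depth and marker genes set the frame for the values. Each sample held 18306184 to 20330207 fragments on the listed genes, recovered from the FPKM steps. The lowest member value, that of Sh3pxd2a in LPS 4 h replicate 3, rested on 200 fragments. Macrophage markers were found in every sample. The summed FPKM of 10 osteoclast markers was 155 to 280 in Control and 1721 to 5474 in RANKL 72 h, where 9 of the 10 were called higher. Calcr, the calcitonin receptor gene, was at 0 in all 3 Control samples. The summed FPKM of 22 stromal markers, such as the collagens, was 257 to 551 in Control and 615 to 2765 in RANKL 72 h, where 12 of the 22 were called higher and no stromal marker was at 0. The called markers of other marrow cells were mostly lower at 72 h. The summed FPKM of 10 granulocyte precursor markers was 7949 to 24417 in Control, 1870 to 7508 in RANKL 72 h (5 lower) and 323 to 2057 in LPS 72 h (9 lower, 1 higher). In RANKL 72 h and LPS 72 h, 7 and 6 of 8 megakaryocyte and platelet markers were lower, as were 5 and 5 of 7 tested B cell markers and 4 and 3 of 4 tested erythroid markers. The summed FPKM of the megakaryocyte and platelet markers was 666 to 780 in Control and 268 to 429 in RANKL 72 h. In LPS 72 h that sum did not fall in every sample, at 441, 755 and 2157 in replicates 1, 2 and 3. The part of these shifts in the members' changes was not tested. LPS 72 h replicate 3 stood apart from the other samples of its group, with macrophage markers at 19492 against 7705 and 9673, and stromal markers at 880 against 261 and 301. In bulk RNA, fewer cells of a type and less RNA per cell cannot be told apart.

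In unstimulated BMDMs the 10 members covered a wide range of levels. Per length, Fermt3 was at 142 ± 7.19 FPKM (SD, n = 3), Gsn at 124 ± 22.5 and Tln1 at 88.3 ± 22.0. Ptk2b followed at 59.4 ± 3.01, Pxn at 37.9 ± 4.08, Cbl at 19.4 ± 7.61 and Cttn at 8.93 ± 1.01. The lowest were Src at 4.35 ± 1.48, Dock5 at 3.20 ± 1.16 and Sh3pxd2a at 1.93 ± 0.617. In that order the samples of Fermt3 and Gsn, Gsn and Tln1, Src and Dock5, and Dock5 and Sh3pxd2a overlapped, and the other neighbours did not. In RANKL 72 h the order changed, with Gsn at the top at 287 ± 46.7 FPKM and Sh3pxd2a still at the bottom at 9.65 ± 2.90.

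**Figure D1:**
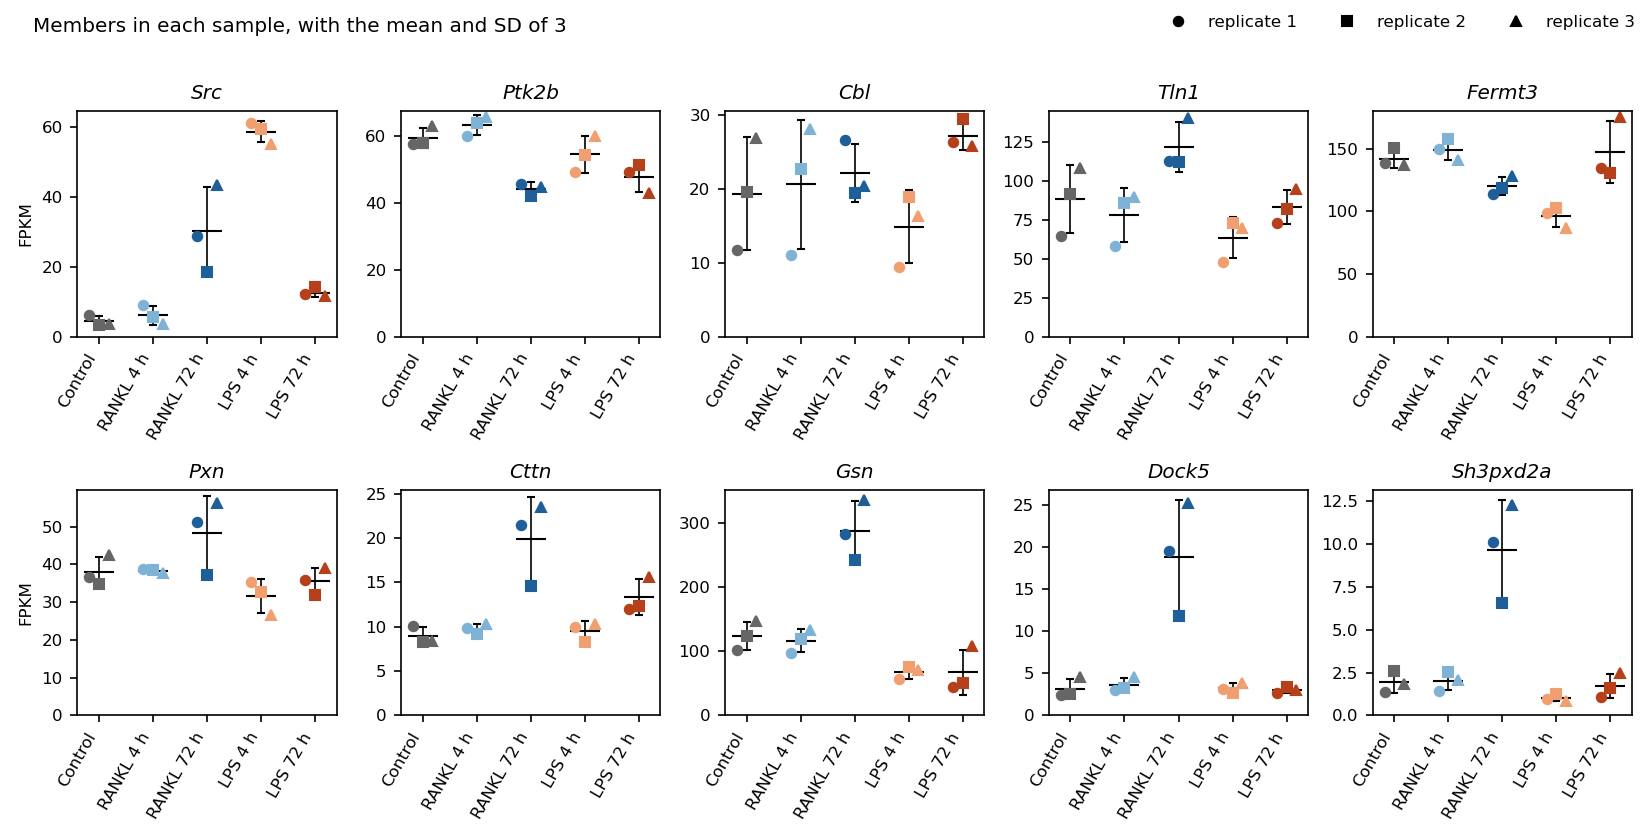
FPKM of the 10 members (y axis, linear, from 0) in the 5 groups (x axis). Points are samples, with the shape giving the replicate number, and bars give the mean and SD of 3. Src, Dock5, Sh3pxd2a, Gsn and Cttn lie above every Control sample in RANKL 72 h, and Src peaks at 58.7 FPKM in LPS 4 h.

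After 72 h of RANKL, 5 of the 10 members were higher than in Control: Src, Dock5, Sh3pxd2a, Gsn and Cttn. A gene was called changed at an adjusted p under 0.05 (limma on log2(FPKM + 0.1), Benjamini-Hochberg over all tested genes) together with a fold above 1.5 or below 0.66. By this rule 24.2% of all tested genes were changed, 16.6% being higher and 7.54% lower (1951 and 886 genes, or 1167 and 1428 with samples centred on their median gene). The median log2 change of the 10 members was 0.80, against 0.16 over all tested genes. No member was called lower. At an unadjusted p under 0.05 with no fold threshold, which 42.7% of all tested genes had, 7 members were higher and 1 was lower, and limma voom on the recovered fragments called 5 higher and 0 lower.

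Src encodes the tyrosine kinase without which osteoclasts form but do not resorb. Its level was 6.06, 3.44 and 3.54 FPKM in Control and 28.9, 18.4 and 43.6 in RANKL 72 h. The groups did not overlap, and RANKL 72 h replicate 2 was the lowest and replicate 3 the highest of the stimulated samples. The log2 change was 2.74 ± 0.32 (SE), a fold of 6.66, with an adjusted p of 6.04e-05. In RANKL 4 h, Src was at 8.92, 5.59 and 3.71 FPKM, which overlapped Control (log2 change 0.43, 95% interval -0.26 to 1.13).

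Dock5 encodes a guanine nucleotide exchange factor for Rac that is needed for sealing zone formation. It was at 2.48, 2.57 and 4.54 FPKM in Control and at 19.5, 11.7 and 25.2 in RANKL 72 h. All 3 stimulated samples were above all 3 Control samples. The log2 change was 2.51 ± 0.29, a fold of 5.68, with an adjusted p of 4.51e-05.

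Sh3pxd2a encodes TKS5, the phox-domain scaffold of podosomes and invadopodia that is phosphorylated by Src. Its values were 1.36, 2.58 and 1.85 FPKM in Control and 10.1, 6.54 and 12.3 in RANKL 72 h. The groups were again apart, by a log2 change of 2.26 ± 0.33 (fold 4.80, adjusted p 0.000277).

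Gsn encodes gelsolin, which severs and caps actin filaments. It was at 101, 123 and 146 FPKM in Control and at 283, 243 and 336 in RANKL 72 h. The stimulated samples were all higher, and the log2 change was 1.22 ± 0.27 (fold 2.32, adjusted p 0.00476). Cttn encodes cortactin, an Arp2/3 activator of the actin core and a Src substrate. It was at 10.1, 8.25 and 8.44 FPKM in Control and at 21.5, 14.6 and 23.5 in RANKL 72 h. Cttn did not overlap between the groups either, with a log2 change of 1.12 ± 0.17 (fold 2.18, adjusted p 0.000415). The 5 members were picked by their call in this comparison, so the lack of overlap is no further support. Its share over all tested genes is not given here.

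The members of the integrin-to-actin link did not pass the rule. Tln1 encodes talin-1, which activates integrins and ties them to actin. It was at 64.7, 91.8 and 108 FPKM in Control and at 113, 112 and 140 in RANKL 72 h. These samples were all above Control, but the log2 change of 0.49 (95% interval 0.01 to 0.96) had an adjusted p of 0.107. Fermt3 encodes kindlin-3, the integrin activator of blood cells. Its Control samples were at 139, 150 and 137 FPKM and its RANKL 72 h samples at 114, 119 and 128, all below Control. The log2 change was -0.24 (95% interval -0.50 to 0.01), with an adjusted p of 0.138. Pxn encodes the adhesion scaffold paxillin. It was at 36.6, 34.7 and 42.5 FPKM in Control and at 51.2, 37.2 and 56.2 in RANKL 72 h, where replicate 2 fell within the Control range (log2 change 0.33, adjusted p 0.116).

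The Src partners Ptk2b and Cbl also stayed outside the rule. Ptk2b encodes Pyk2, the focal adhesion kinase of osteoclasts that binds Src. It was at 57.5, 57.9 and 62.9 FPKM in Control and at 45.7, 42.1 and 44.8 in RANKL 72 h. All stimulated samples were lower, with a log2 change of -0.43 ± 0.10 and an adjusted p of 0.00701, but the fold of 0.745 was short of the threshold of 0.66. With samples centred on their median gene the change was -0.65 and was called lower. Cbl encodes the ubiquitin ligase and adaptor bound by Src and Pyk2. Its Control samples were at 11.7, 19.6 and 26.9 FPKM and its RANKL 72 h samples at 26.7, 19.5 and 20.4. The groups overlapped, and the log2 change of 0.26 had a 95% interval of -0.50 to 1.01.

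**Figure D2:**
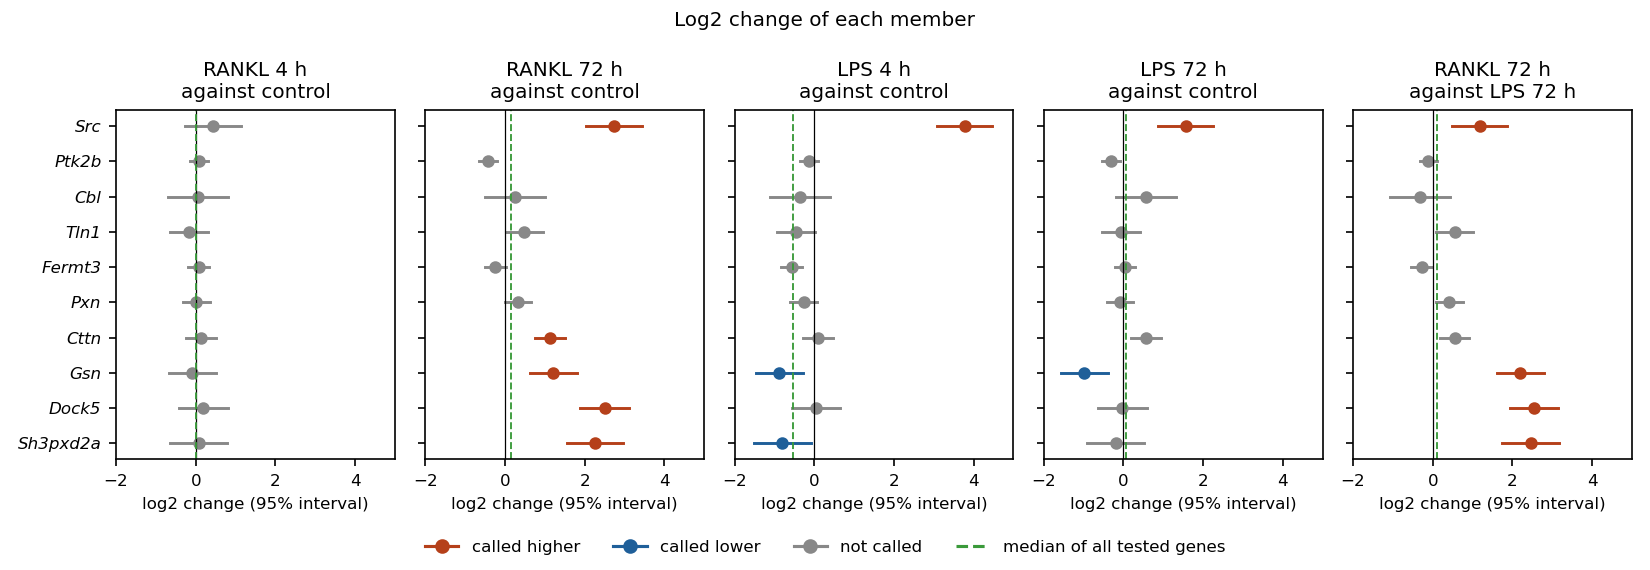
Log2 change of each member (x axis) in 5 comparisons, with 95% intervals from limma. Red points were called higher, blue points lower and grey points not called, and the dashed line is the median of all tested genes. RANKL 72 h against control holds 5 red points, from 1.12 for Cttn to 2.74 for Src, and in LPS 4 h the dashed line lies at -0.52.

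The changes of the first hours of RANKL were small. In RANKL 4 h against control none of the 10 members was called, and 0.119% of all tested genes were (14 genes, with 0.111% higher and 0.00852% lower). None had an unadjusted p under 0.05 (4.96% of all tested genes had), the smallest being 0.201 for Src, and voom called none. These p-values take no account of pairs, although same-numbered samples of RANKL 4 h and control deviated together (r from 0.707 to 0.842). Src, Ptk2b and Fermt3 were higher in RANKL 4 h in every same-numbered pair, Gsn and Tln1 were lower, and the other members were mixed. The share of all tested genes with such a pattern is not given here. A replicate block over all 5 groups called no member either. The member log2 changes ran from -0.18 to 0.43. Against RANKL 4 h, RANKL 72 h had 6 higher members and none lower, where 23.3% of all tested genes were changed (16.4% higher, 6.83% lower). These were 1930 genes higher and 802 lower, or 1141 and 1351 with samples centred on their median gene. Ptk2b and Fermt3 were lower there at an unadjusted p under 0.05, as 41.9% of all tested genes were in either direction, and voom called 6 higher and none lower. The 6 were Src (log2 change 2.30), Dock5 (2.32), Sh3pxd2a (2.19), Gsn (1.30), Cttn (0.99) and Tln1 (0.66, adjusted p 0.0368). Tln1 lost its call without any one of the 3 RANKL 72 h samples or RANKL 4 h replicate 1, where the log2 change ran from 0.46 to 0.78 over the samples left out.

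The 5 members that rose shared 1 order of the RANKL 72 h samples. Replicate 3 was the highest and replicate 2 the lowest in Src, Dock5, Sh3pxd2a, Gsn and Cttn. Tln1 and Pxn, which were not called, had this order too, so it did not set the risen members apart. The osteoclast markers had the same order, with summed levels of 3168, 1721 and 5474 FPKM in replicates 1, 2 and 3. Of the 1951 genes called higher, 27.3% had that order, and the share over all tested genes is not given here. Among other podosome genes, Itgb3 and Bcar1 were highest in replicate 1 and Pak1 was lowest in replicate 1. The stromal markers had another, at 2765, 1269 and 615 FPKM, which was shared by 22.7% of those genes. The mean log2 level of the stromal markers, not their sum, was used as a covariate. With it, the log2 changes of Src, Dock5, Sh3pxd2a, Gsn and Cttn were 2.64, 2.83, 2.26, 1.19 and 1.05, all still called. Tln1 was then called higher too, at 0.78. By their sum, the stromal markers were higher in each RANKL 72 h sample than in any Control sample (257 to 551 FPKM). The covariate thus moved with the group and cannot separate stromal RNA from the stimulus, for these or other genes. The part of stromal RNA was not tested.

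**Figure D3:**
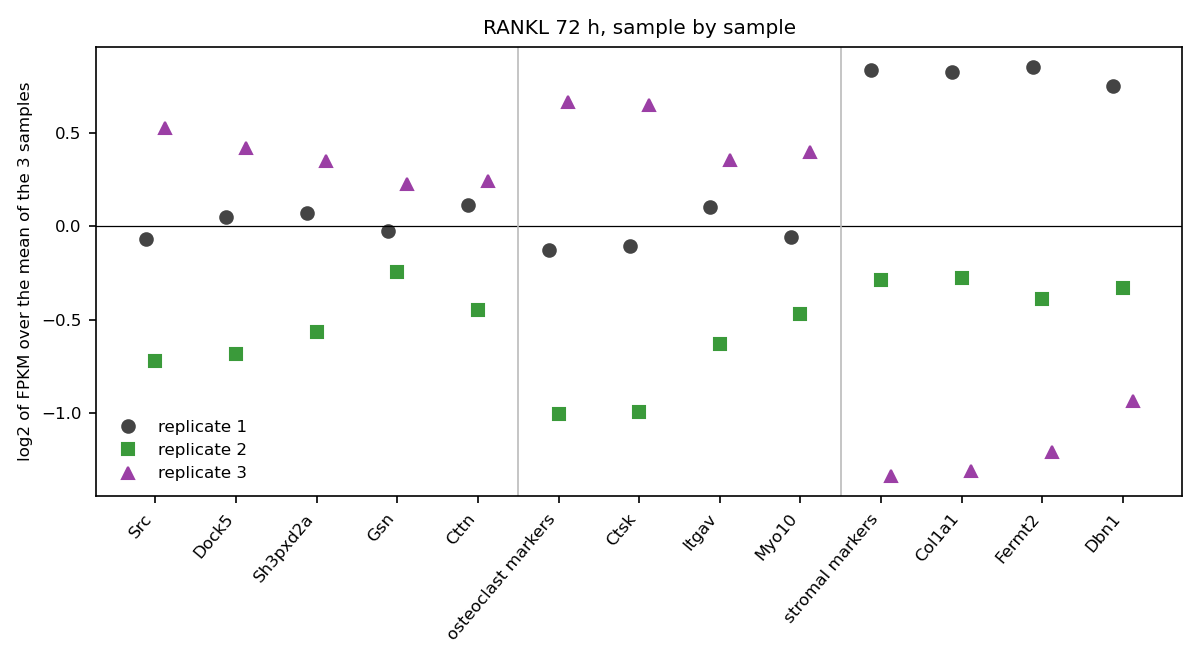
Log2 of FPKM over the mean of the 3 RANKL 72 h samples (y axis) for the 5 members that rose, osteoclast markers and other podosome genes, and stromal markers with genes of the same order (x axis). Shapes and colours give the replicate. Replicate 3 is highest and replicate 2 lowest from Src to Myo10, whereas from the stromal markers to Dbn1 replicate 1 is highest and replicate 3 lowest. The single genes beside the members were picked for these orders after their values were seen.

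After 4 h of LPS, Src had its highest level of the 5 groups. Its samples were at 61.1, 59.6 and 55.3 FPKM, far above the 3.44 to 6.06 of Control and also above the highest RANKL 72 h sample, 43.6. The log2 change was 3.77 ± 0.32, a fold of 13.7, with an adjusted p of 6.42e-07. Its change was 4.34 with samples centred on their median gene. In this comparison 48.1% of all tested genes were changed (8.43% higher, 39.7% lower), and the median of all tested genes was -0.52. The calls were 990 genes higher and 4660 lower, or 1871 and 1529 with samples centred on their median gene. The member median was -0.31.

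Against that background 2 members were called lower in LPS 4 h. Gsn was at 56.2, 74.8 and 70.5 FPKM, all below the 101 of the lowest Control sample. Its log2 change was -0.88 (adjusted p 0.0135), and -0.31 with samples centred on their median gene, which was not called. It was also not called without Control replicate 3 or LPS 4 h replicate 1 (-0.75 in both). Sh3pxd2a was at 0.983, 1.28 and 0.863 FPKM, just below the lowest Control value of 1.36. Its log2 change of -0.80 had an adjusted p of 0.0494, and the call was lost in 13 of 21 alternatives, where the change ran from -1.02 to -0.23 over all 21. Voom called 1 member higher and 1 lower.

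The other 7 members were not called in LPS 4 h. Fermt3 was at 98.4, 103 and 86.8 FPKM, all below Control, with a log2 change of -0.57 (adjusted p 0.0011) and a fold of 0.674, just short of the threshold. Its adjusted p was 0.995 with samples centred on their median gene. Dock5, at 3.18, 2.63 and 3.83 FPKM, overlapped Control, with a log2 change of 0.05 (95% interval -0.57 to 0.66). Cttn was at 9.97, 8.29 and 10.3 FPKM, with a log2 change of 0.09 (95% interval -0.28 to 0.46). Cttn was called higher, at 0.66, with samples centred on their median gene. The remaining log2 changes were -0.13 for Ptk2b, -0.36 for Cbl, -0.46 for Tln1 and -0.27 for Pxn, which turned to 0.44, 0.21, 0.10 and 0.30 with samples centred on their median gene.

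After 72 h of LPS, Src was still above Control and Gsn below it. Src was at 12.1, 14.2 and 11.5 FPKM, all above Control (log2 change 1.56 ± 0.32, fold 2.95, adjusted p 0.00226). Gsn was at 43.8, 50.1 and 108 FPKM. Replicate 3, the sample that stood apart in its markers, lay within the Control range. The log2 change of Gsn was -0.98 (adjusted p 0.013), and -1.38 without that replicate. It was lost when only the groups compared were fitted, and without Control replicate 3, LPS 72 h replicate 1 or LPS 72 h replicate 2, with -0.74 as the smallest change. In this comparison 27.4% of all tested genes were changed (13% higher, 14.4% lower), and the median log2 change was -0.05 over the members and 0.08 over all tested genes.

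Cttn and Ptk2b came close to the rule in LPS 72 h. Cttn was at 12.0, 12.4 and 15.7 FPKM, all above Control, with a log2 change of 0.57 (adjusted p 0.0202) and a fold of 1.49. Ptk2b was at 49.2, 51.2 and 42.8 FPKM, all below Control, with a log2 change of -0.32 (adjusted p 0.0263) and a fold of 0.802. Dock5, at 2.64, 3.33 and 3.07 FPKM, and Sh3pxd2a, at 1.05, 1.60 and 2.48, overlapped Control. Their log2 changes were -0.03 (95% interval -0.65 to 0.58) and -0.20 (95% interval -0.90 to 0.51). The log2 changes of Fermt3, Pxn and Tln1 were 0.04, -0.09 and -0.06, and Cbl stood at 0.57 (95% interval -0.19 to 1.32).

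Between the LPS times, Src fell while Cbl and Fermt3 rose. Src had a log2 change of -2.21 from LPS 4 h to LPS 72 h (adjusted p 4.22e-05), with no overlap. Cbl went from 9.43, 19.0 and 16.3 FPKM to 26.4, 29.6 and 25.8, a log2 change of 0.92 (adjusted p 0.0314). Fermt3 reached 135, 131 and 175 FPKM, a log2 change of 0.61 (adjusted p 0.000514). In this comparison 58.1% of all tested genes were changed (44.2% higher, 13.9% lower), and the median of all tested genes was 0.52. The calls were 5186 genes higher and 1631 lower, or 2209 and 3224 with samples centred on their median gene. With samples centred on their median gene Cbl was at 0.27 and not called, and Fermt3 turned to -0.04. Dock5, Gsn and Ptk2b were then called lower, at -0.73, -0.76 and -0.84. Without LPS 72 h replicate 3, Src was the 1 member called, with Cbl at 0.96 and Fermt3 at 0.47.

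The stimuli were then compared with each other at equal times. In RANKL 72 h against LPS 72 h, 4 members were higher and none lower, where 36.1% of all tested genes were changed (23.3% higher, 12.8% lower). These were 2739 genes higher and 1506 lower, or 2237 and 2045 with samples centred on their median gene. The median log2 difference was 0.55 over the members and 0.11 over all tested genes. Fermt3 was lower at an unadjusted p under 0.05, which 52.8% of all tested genes had, and voom called 4 higher and none lower. Dock5 differed by a log2 value of 2.54 (fold 5.82, adjusted p 1.09e-05), Sh3pxd2a by 2.46 (fold 5.50, adjusted p 4.93e-05), Gsn by 2.20 (fold 4.60, adjusted p 2.55e-05) and Src by 1.18 (fold 2.26, adjusted p 0.0089). Samples did not overlap in any of the 4. These were picked by their call in this comparison, so the separation is no further support. The share of all tested genes without overlap is not given here. Cttn differed by 0.55 (adjusted p 0.0191) with a fold of 1.46, and its RANKL 72 h replicate 2, at 14.6 FPKM, lay below LPS 72 h replicate 3, at 15.7. Tln1 stood at 0.55 (adjusted p 0.0548), Pxn at 0.42 (adjusted p 0.0372, fold 1.34), Fermt3 at -0.28, Cbl at -0.31 and Ptk2b at -0.11. Without LPS 72 h replicate 3, Cttn (0.67, adjusted p 0.00822) and Tln1 (0.65, adjusted p 0.0418) were called higher too.

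At 4 h the order of the stimuli was reversed for Src. RANKL 4 h was lower than LPS 4 h by a log2 value of -3.34 (adjusted p 1.7e-06), with no overlap. Fermt3 (0.64), Gsn (0.79) and Sh3pxd2a (0.88) were called higher in RANKL 4 h, where 50% of all tested genes were changed (41% higher, 8.98% lower) and the median of all tested genes was 0.53. There were 4818 genes higher and 1054 lower, or 1580 and 1905 with samples centred on their median gene. After that centring the 3 members stood at 0.07, 0.22 and 0.31 and were not called, and Src alone was called.

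The close relatives of the members were read beside them. Of the Src family, Lyn went from 92.4 ± 13.4 FPKM to 66.4 ± 1.01 in RANKL 72 h, a log2 change of -0.47 (adjusted p 0.0231) under the fold threshold. Fyn was called lower in LPS 72 h (-1.18) and stood at 0.39 in RANKL 72 h (adjusted p 0.194), while Fgr stood at 0.62 (adjusted p 0.258). Per length, the group mean of Lyn was above that of Src in Control, and in RANKL 72 h it was above its 30.3 FPKM.

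Among the other relatives, Dock1 was called higher in RANKL 72 h (log2 change 0.69, from 5.22 ± 1.42 to 8.28 ± 0.700 FPKM), and not with samples centred on their median gene (0.47). Dock2, the main leukocyte member, was at 43.8 ± 9.21 and 54.0 ± 2.15 FPKM (0.32, adjusted p 0.219). Sh3pxd2b, which encodes TKS4, was at 24.2 ± 3.68 FPKM in Control and 29.2 ± 2.18 in RANKL 72 h (0.28, adjusted p 0.259). It was called higher in LPS 72 h (0.89), where it reached 44.7 ± 0.299 FPKM. Per length, Sh3pxd2b was above Sh3pxd2a in the mean of each of the 5 groups.

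Hcls1, the leukocyte relative of cortactin, was at 173 ± 11.6 FPKM in Control, well above Cttn per length. It was called higher in LPS 4 h (log2 change 0.63) and LPS 72 h (0.59, and 0.51 and not called with samples centred on their median gene), and stood at -0.16 in RANKL 72 h (adjusted p 0.347). Capg, a capping relative of gelsolin, stood at -0.09 in RANKL 72 h (adjusted p 0.568), and Svil, the supervillin gene, at -0.08 (adjusted p 0.831). Svil was called lower in LPS 4 h (-1.10). The paxillin relative Lpxn was called lower in LPS 4 h (-1.49) and stood at -0.45 in RANKL 72 h (adjusted p 0.0215, under the fold threshold). Cblb was called lower in LPS 4 h (-1.03) and Ptk2, the focal adhesion kinase gene, stood at -0.54 there (adjusted p 0.0101, under the fold threshold). With samples centred on their median gene, Hcls1 (1.20) and Lpxn (-0.92) were still called in LPS 4 h, whereas Svil (-0.53) and Cblb (-0.46) were not, and Ptk2 stood at 0.02.

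Fermt2, the kindlin-2 gene of non-blood cells, was called higher in RANKL 72 h at a log2 change of 1.45. Its RANKL 72 h samples were at 14.5, 6.16 and 3.49 FPKM and its Control samples at 1.66 to 3.95, so the groups overlapped. The samples had the order of the stromal markers, and with the stromal level as a covariate the change was 0.37 and was not called, nor was it with samples centred on their median gene (1.23). Tln2 stood at 1.11 (adjusted p 0.0579) from 0.335 ± 0.0874 FPKM, and the paxillin relative Tgfb1i1 at 0.78 (adjusted p 0.162).

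A wider list of 160 podosome genes in 4 roles was read beside the members, of which 149 were listed in the data and 147 tested. In RANKL 72 h against control, 20 were higher (13.6%) and 6 lower (4.08%), against 16.6% and 7.54% of all tested genes. The median log2 change was 0.18, against 0.16 over all tested genes. The adhesion ring list held 9 higher and 1 lower of 25, with a median of 0.33. The actin core list held 5 higher and 0 lower of 47, with a median of -0.0018. The kinases and adaptors held 2 higher and 2 lower of 35 (median 0.26). Over the 4 lists, 42 genes were higher and 15 lower at an unadjusted p under 0.05 (38.8%, against 42.7% of all tested genes), and voom called 21 higher and 6 lower.

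In the adhesion ring list, Bcar1, which encodes the Src substrate p130Cas, had a log2 change of 1.85 (from 1.45 ± 0.508 to 5.32 ± 0.961 FPKM, adjusted p 0.000298). The αv integrin gene Itgav had 1.44 (from 10.4 to 18.6 FPKM in Control to 26.7 to 52.9 in RANKL 72 h, adjusted p 0.0102). Its partner Itgb3 had 1.32 (from 9.60 ± 3.96 to 25.1 ± 11.4 FPKM, adjusted p 0.02), with overlap between the groups. It was not called with the stromal level as a covariate (0.86) or with samples centred on their median gene (1.10). In the actin core list, Myo10, an unconventional myosin of filopodia, had 1.89 (from 3.43 ± 0.442 to 13.3 ± 3.96 FPKM). Actn1, the alpha-actinin-1 gene, had 1.13 (from 36.4 ± 3.60 to 80.9 ± 16.6 FPKM). Dbn1, the drebrin gene, had 1.39, and was not called with the stromal covariate (0.31) or with samples centred on their median gene (1.17). Its RANKL 72 h samples were at 7.53, 3.56 and 2.35 FPKM, in the order of the stromal markers.

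Signalling genes moved in both directions in RANKL 72 h. Git1, an adaptor bound to paxillin, rose by 0.95 (from 18.5 ± 0.963 to 36.7 ± 10.6 FPKM). The adaptor gene Nck2 had a log2 change of -1.09 (from 12.9 to 16.4 FPKM in Control to 6.74 to 7.17 in RANKL 72 h, adjusted p 0.000106). Pak1, a kinase downstream of Rac and Cdc42, rose by 0.93 (from 13.1 ± 1.72 to 25.0 ± 2.77 FPKM) and was not called with samples centred on their median gene (0.71, adjusted p 0.0511).

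**Figure D4:**
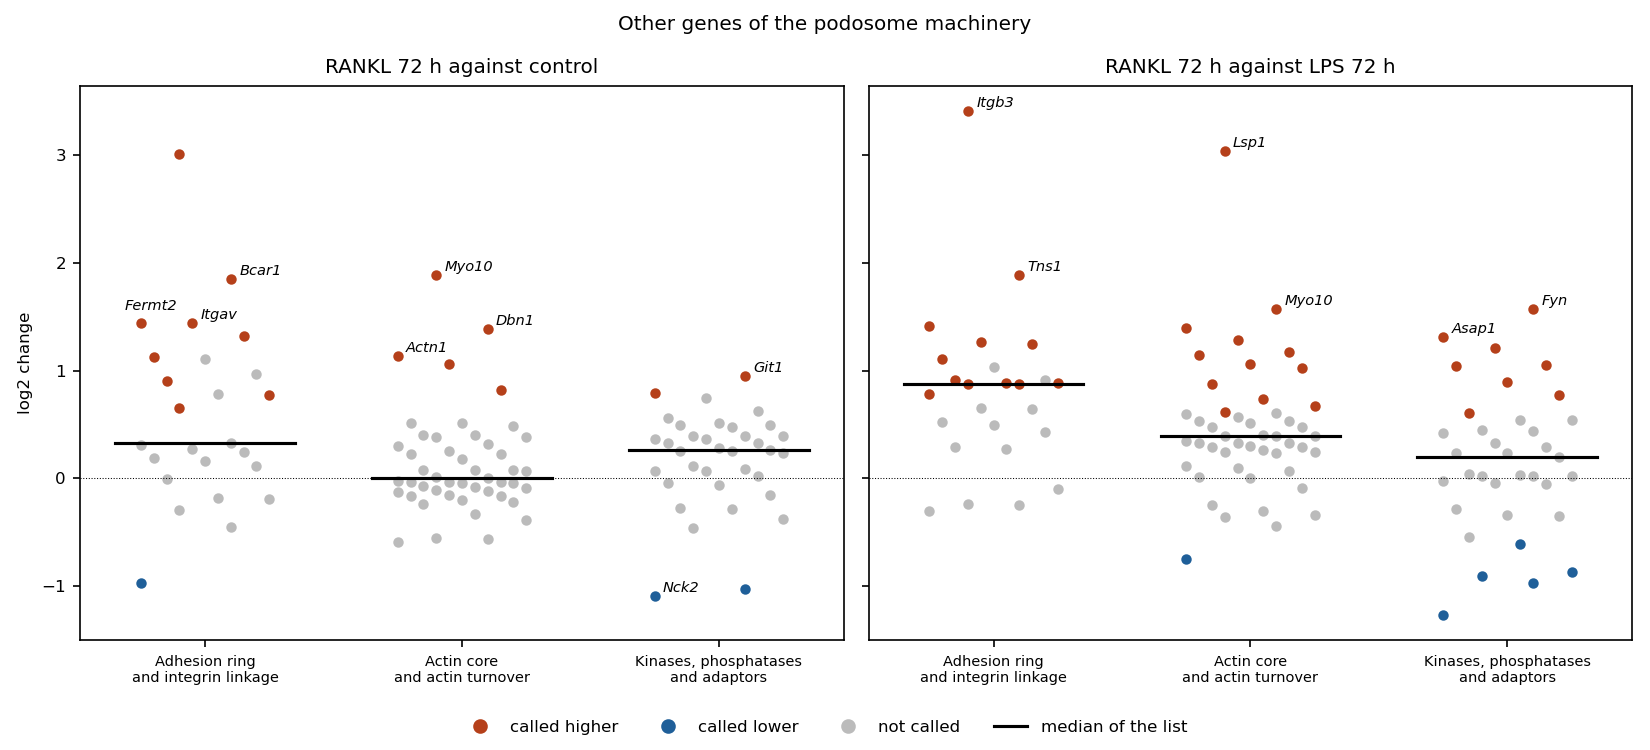
Log2 change (y axis) of podosome genes outside the 10 members, in the adhesion ring list, the actin core list and the list of kinases and adaptors (x axis), for RANKL 72 h against control on the left and RANKL 72 h against LPS 72 h on the right. Red points were called higher, blue points lower and grey points not called, and bars give list medians. Labelled genes are those named in the text, and the highest median is that of the adhesion ring list on the right, at 0.87.

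Against LPS 72 h, RANKL 72 h had 43 of the 147 genes higher (29.3%) and 8 lower (5.44%), where 23.3% and 12.8% of all tested genes were called, with a median log2 difference of 0.38 against 0.11 over all tested genes. The adhesion ring list held 12 higher and 0 lower of 25 (median 0.87), the actin core list 12 and 1 of 47 (0.39), and the kinases and adaptors 8 and 5 of 35 (0.20). Itgb3 differed by 3.41, with 2.09 ± 0.44 FPKM in LPS 72 h against 25.1 ± 11.4 in RANKL 72 h, and was itself called lower in LPS 72 h than in Control (-2.09). The tensin gene Tns1 differed by 1.89, at 1.96 ± 0.449 FPKM in LPS 72 h and 7.61 ± 2.20 in RANKL 72 h. Against Control, Tns1 was called lower in LPS 72 h (-2.07) and stood at -0.18 in RANKL 72 h (adjusted p 0.640). Lsp1, a leukocyte actin-binding protein gene, differed by 3.04, with 3.52 to 20.8 FPKM in LPS 72 h and 48.9 to 80.7 in RANKL 72 h. It too was called lower in LPS 72 h than in Control (-2.64), and stood at 0.40 in RANKL 72 h (adjusted p 0.603). Myo10 differed by 1.57, and like Src it was called higher in LPS 4 h (2.01).

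The same comparison set apart several signalling genes. Fyn differed by 1.57, the Arf regulator gene Asap1 by 1.31, and Arhgap18, which encodes a GTPase-activating protein, by 1.99. In RANKL 4 h against control no gene of the 4 lists was called by limma or voom, and 3 were higher and 3 lower at an unadjusted p under 0.05 (4.08%, against 4.96% of all tested genes). In LPS 4 h against control 15 of the 147 were higher (10.2%) and 39 lower (26.5%), against 8.43% and 39.7% of all tested genes, and the median was -0.29 against -0.52. In LPS 72 h against control 11 were higher (7.48%) and 27 lower (18.4%), against 13% and 14.4% of all tested genes, and the median was -0.20 against 0.08.

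The 3 genes with the pattern nearest to each risen member were sought among 9485 other genes averaging 1 FPKM or more. Likeness was the root mean square difference over the 4 log2 changes against control, which share the Control samples. Nearest to Src were Lif (0.264), Nfkb2 (0.402) and Fcrlb (0.418). Nearest to Sh3pxd2a were Prkcdbp (0.136), Rasal2 (0.156) and the osteoclast factor gene Nfatc1 (0.225). Gsn had Fasn (0.108), Tnni2 (0.139) and Syce2 (0.141), and Cttn had Lama4 (0.083), Rapgef1 (0.084) and Acvr2a (0.086).

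Nearest to Dock5 were the matrix and integrin genes Col16a1 (0.088), Col5a1 (0.248) and Itga11 (0.263). Within RANKL 72 h these 3 had another order of samples than Dock5. Col16a1 was at 8.25, 4.33 and 2.36 FPKM, whereas Dock5 was at 19.5, 11.7 and 25.2. Dock5 was highest in replicate 3, the sample in which Col16a1 was lowest. Such a difference was not limited to Dock5. Of the genes nearest to the other members, Fcrlb, Prkcdbp, Tnni2 and Lama4 were highest in replicate 1. Nfkb2, Fasn, Syce2 and Acvr2a were highest in replicate 2, whereas Lif, Rasal2, Nfatc1 and Rapgef1 had the order of their member.

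Over all genes, replicates 1 and 3 of a group differed with exon length, apart from LPS 72 h. The values imply exon lengths of 2590 bases for Fermt3, 3075 for Gsn, 3292 for Cttn, 4341 for Ptk2b, 4502 for Src, 5537 for Pxn, 8692 for Tln1, 9525 for Cbl, 10396 for Dock5 and 10917 for Sh3pxd2a. In Control, the median log2 ratio of replicate 1 to replicate 3 went from 0.14 for genes of up to 1500 bases to -0.49 for those over 8000. It went from 0.28 to -0.49 in RANKL 4 h and from 0.29 to -0.34 in LPS 4 h, and from -0.10 to 0.15 in RANKL 72 h. In LPS 72 h it was 0.12 and 0.16 in these classes, without a steady trend in between. Cbl and Tln1 were lowest in replicate 1 of Control, RANKL 4 h and LPS 4 h. Dock5 and Sh3pxd2a, which are longer, were lowest in replicate 1 of Control and RANKL 4 h, but in replicate 2 and replicate 3 of LPS 4 h. The part of length in the spread of these members was not tested.

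The median log2 change of genes averaging 1 FPKM or more also varied with exon length. From the class of up to 1500 bases to that over 8000, it went from 0.02 to 0.33 in RANKL 72 h against control. It went from 0.0073 to 0.32 against RANKL 4 h, and from 0.02 to 0.18 in LPS 72 h against control. Tln1, Cbl, Dock5 and Sh3pxd2a are in the longest class. Centring each sample within 10 bins of exon length left the 5 members called in RANKL 72 h against control. Dock5 then had a log2 change of 2.11 and Sh3pxd2a of 1.86. The change of Cbl was -0.14 in place of 0.26, and that of Tln1 was 0.09 in place of 0.49. Tln1 in RANKL 72 h against RANKL 4 h was 0.25 and no longer called.

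**Figure D5:**
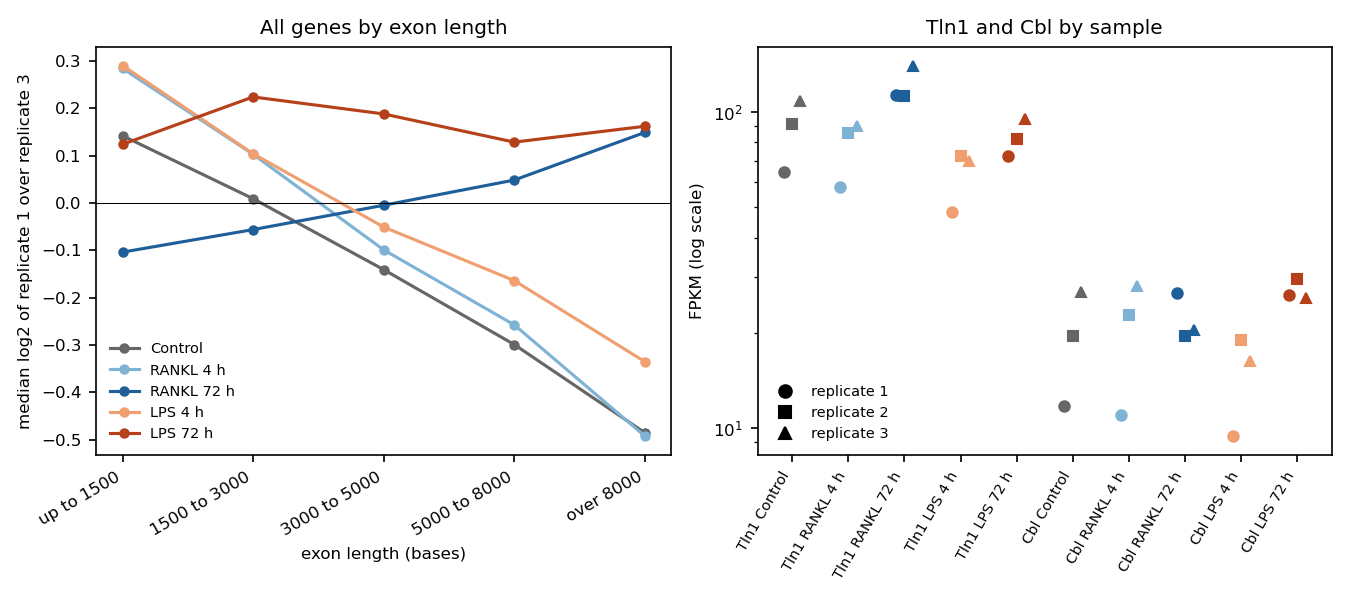
Left, the median log2 ratio of replicate 1 to replicate 3 (y axis) over genes in 5 classes of exon length (x axis), with a line for each group. Right, FPKM of Tln1 and Cbl in each sample (log y axis), with the shape giving the replicate. The lines of Control, RANKL 4 h and LPS 4 h fall with length, to -0.49, -0.49 and -0.34, and replicate 1 is the lowest sample of Tln1 and Cbl in these 3 groups.

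In the GENCODE annotation of GRCm38, Src lies on chromosome 2 from 157418444 to 157471862 and Gsn on the same chromosome from 35256380 to 35307892, both on the plus strand. Fermt3 (chromosome 19, 6998958 to 7019469, minus strand) overlaps Trpt1 on the opposite strand. Tln1 (chromosome 4, 43531519 to 43562691, minus strand) overlaps Creb3 on the opposite strand. Whether fragments were counted by strand is not given in the sources used here, so reads of these overlaps could not be assigned to 1 gene with certainty. Dock5 (chromosome 14, 67752135 to 67933442, minus strand) and Sh3pxd2a (chromosome 19, 47260174 to 47464401, minus strand) each span a microRNA gene.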

How the data were processed

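RNA from 15 BMDM samples (5 groups of 3, grouped by the labels) was sequenced with a SMARTer mRNA kit. The authors deposited 1 table of FPKM per gene and sample. The submitters' processing notes name StringTie and the builds GRCm38.p4 and mm10, and the aligner is not given in the sources used here. The 10 members and the gene lists were chosen with earlier results of these data known.

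The deposited FPKM values were taken as log2(FPKM + 0.1) for genes that reached 0.1 FPKM on average, and the 5 groups were fitted together in limma (version 3.58.1, moderated with a mean-variance trend, under R 4.3.3), with p-values adjusted by Benjamini-Hochberg over all 11743 genes. Fold changes are on that scale and understate the change of low genes. The study's own test was a count model with unadjusted p-values. Its fold thresholds were kept and the test was chosen to suit FPKM. Genes named beyond the members are their close relatives, the 3 genes of each role list with the largest called change in RANKL 72 h against control and the 2 with the largest called difference from LPS 72 h (at 1 FPKM or more on average), the 3 genes nearest in pattern to each risen member, and marker genes. FPKM steps gave back whole fragments, which were tested with limma voom as an alternative. In simulated data, 52 of 100 genes changed by a log2 value of 1, 81 of 100 changed by 2 and 2 of 11543 unchanged genes were called. There the noise was independent between genes and samples, and only these genes were changed, in 1 group. In the data far more genes were called and same-numbered samples deviated together, so these rates may not carry over.

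Same-numbered samples deviated together in RANKL 4 h and control (r from 0.707 to 0.842 over 9486 genes), RANKL 72 h and control (0.136 to 0.318), LPS 4 h and control (0.44 to 0.624), RANKL 4 h and LPS 4 h (0.555 to 0.692) and both RANKL times (0.162 to 0.251). The pairing comes from the data, since the labels give numbers only. With 3 samples against 3, an exact permutation test of a single gene cannot go below a p of 0.1 (two-sided). The last row listed was cut short and was not used, and some genes of the role lists were not analysed here. Some results of the relatives and the role lists are not reported here, though the totals hold them.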

Additional observations from a re-analysis of the deposited data

Results flagged for a closer look

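Changes between the times of a stimulus were tested for each member, and 9 differed (limma, adjusted over all tested genes). Of all tested genes, 23.3% were changed between the RANKL times and 58.1% between the LPS times. From RANKL 4 h to RANKL 72 h, Src rose by 2.30 on the log2 scale (adjusted p 0.000218), Dock5 by 2.32 (8.5e-05), Sh3pxd2a by 2.19 (0.000378), Gsn by 1.30 (0.00336), Cttn by 0.99 (0.00108) and Tln1 by 0.66 (0.0368). All 3 samples of RANKL 72 h were above all 3 of RANKL 4 h in each of the 6. These genes were picked by their call in the same comparison, so the separation is no further support. The share of all tested genes without overlap is not given here. Tln1 kept its call in 13 of 21 alternatives. From LPS 4 h to LPS 72 h, Src had a log2 change of -2.21 (adjusted p 4.22e-05), Cbl of 0.92 (0.0314) and Fermt3 of 0.61 (0.000514), with no overlap between the groups. These genes were picked in the same way, and the same limit holds. With samples centred on their median gene, Cbl lost its call and Fermt3 turned to -0.0434. Src thus went up between the RANKL times and down between the LPS times.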

How the results depend on the processing

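In RANKL 72 h against control 5 members were called with any 1 sample left out (5 to 5) and with the replicate block, where all called genes numbered 3149 in place of 2837. The block changed no member call. Same-numbered samples did not deviate together in LPS 72 h and control (r from -0.03 to 0.184), RANKL 72 h and LPS 72 h (-0.229 to -0.021) or both LPS times (-0.151 to 0.068). In LPS 72 h against control, 4 members were called with no fold threshold and 1 when only the groups compared were fitted, in place of 2. In RANKL 4 h against LPS 4 h, 1 was called in place of 4 with samples centred on their median gene or by length, with or without the block. Role genes changed in RANKL 72 h numbered 40 with no fold threshold in place of 26. Leaving out 1 sample gave 1 to 4 members for LPS 4 h against control (1 without Control replicate 3 or LPS 4 h replicate 1), 1 to 3 for LPS 72 h against control (1 without Control replicate 3), 4 to 6 for RANKL 72 h against LPS 72 h, 2 to 5 for RANKL 4 h against LPS 4 h (2 without LPS 4 h replicate 1 or 3 or RANKL 4 h replicate 2 or 3), 5 to 6 for RANKL 72 h against RANKL 4 h, 1 to 3 for LPS 72 h against LPS 4 h (1 without LPS 72 h replicate 3) and 20 to 29 role genes. The changes of all members in RANKL 72 h against control and against LPS 72 h, and of the called members in the other comparisons, were followed under every alternative. Those that turned were Cbl in RANKL 72 h against control (-0.14 with length centring, with or without the block, and -0.065 to 0.5325 over the samples left out, lowest without Control replicate 1), Ptk2b (0.0044) and Cbl (0.0549) in RANKL 72 h against LPS 72 h with the stromal covariate, and Fermt3 between the LPS times (-0.0434 with samples centred on their median gene). The causes were not tested. Length centring was chosen after seeing the data. With samples centred on their median gene, uncalled changes in LPS 4 h turned too, as given above for Ptk2b, Cbl, Tln1, Pxn and Ptk2. Of the values followed for single members, 719 kept direction and call, 60 lost a call, 13 gained 1 and 6 turned.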
